A study of Homo sapiens with 6 samples.

Results

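BMP and TGF-beta response genes were examined in HT29 cells after knockdown of ALDOA. The group was defined by gene symbol and holds 10 of the 28278 genes in the count tables: the ligand gene BMP4, the receptor gene TGFBR2, SMAD3, SMAD4, SMAD6 and SMAD7, the pseudoreceptor gene BAMBI, and the target genes ID1, ID2 and ID3. HT29 is a human line of colorectal adenocarcinoma with epithelial morphology and is known to carry a truncating mutation of SMAD4. The cells received either siALDOA, an siRNA against the glycolytic enzyme aldolase A, or siControl, a scrambled siRNA, and their total RNA was collected 48 h later. Each group had 3 biological replicates of this single line, and which siRNA sequence was used for RNA-Seq is not given in the sources used here.

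Ligands of the BMP and TGF-beta class bind paired type I and type II receptor kinases, which phosphorylate receptor-regulated SMAD proteins. These enter the nucleus with SMAD4 and act on target genes, among them the ID genes, whose proteins block basic helix-loop-helix (HLH) factors, and the inhibitory SMAD genes, whose proteins feed back on the pathway. In the colon, BMP signalling is strongest towards the top of the crypt, where cells differentiate, and TGF-beta signalling restrains the growth of epithelial cells.

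Promoter windows of all 10 genes, 19 windows in all, were taken from RefSeq (GRCh38.p14) and run from 250 bases before to 50 bases after each annotated start. They were searched on both strands for GTCTAGAC, a palindrome that SMAD3 and SMAD4 bind, for GGCGCC, a GC-rich element bound by BMP-activated SMADs, and for CAGACA, the core of the CAGA box that SMAD3 and SMAD4 bind. Among 35116 windows of all genes, these letters were found in 0.202%, 19.2% and 16.9%, respectively. Sequences are shown 5′ to 3′ on the gene's own strand with the words found in capitals, for ID1 as the only gene of the group that was called, for SMAD6 as the only one with the palindrome, and for BAMBI as the one with the most matches in a single window.
ID1, chr20:31605039-31605338, plus strand: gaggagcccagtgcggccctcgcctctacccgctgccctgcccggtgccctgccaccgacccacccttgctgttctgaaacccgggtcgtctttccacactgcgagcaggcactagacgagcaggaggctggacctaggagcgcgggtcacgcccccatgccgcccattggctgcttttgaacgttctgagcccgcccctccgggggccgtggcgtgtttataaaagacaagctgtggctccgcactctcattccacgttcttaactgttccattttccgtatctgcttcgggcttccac
SMAD6, chr15:66701986-66702285, plus strand: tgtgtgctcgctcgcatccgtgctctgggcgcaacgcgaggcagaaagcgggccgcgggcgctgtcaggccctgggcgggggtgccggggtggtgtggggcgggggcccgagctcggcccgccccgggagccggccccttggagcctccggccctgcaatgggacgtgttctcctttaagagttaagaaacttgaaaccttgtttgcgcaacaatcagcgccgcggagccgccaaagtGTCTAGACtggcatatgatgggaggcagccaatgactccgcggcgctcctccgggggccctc
BAMBI, chr10:28677271-28677570, plus strand: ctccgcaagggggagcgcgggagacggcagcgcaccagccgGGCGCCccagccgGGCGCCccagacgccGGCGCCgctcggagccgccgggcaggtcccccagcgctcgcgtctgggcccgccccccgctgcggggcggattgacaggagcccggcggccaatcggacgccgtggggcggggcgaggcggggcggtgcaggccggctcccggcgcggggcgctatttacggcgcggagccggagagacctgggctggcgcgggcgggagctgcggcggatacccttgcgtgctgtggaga
The SMAD6 window held GTCTAGAC starting 12 bases before the annotated start, and the BAMBI window held GGCGCC 3 times. No match was found in the ID1, ID2, ID3, SMAD7 and TGFBR2 windows, which says only that these letters are not in these windows. The matches describe sequence and are not measured binding sites.

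The libraries held 27277538 to 33237914 counts each, the siControl totals all above those of siALDOA, and ribosomal RNA genes took 7.71% to 17.4% of them. ALDOA itself was measured at 283, 305 and 280 CPM (counts scaled to a library of 1000000) with siALDOA and at 592, 637 and 668 CPM with siControl, a log2 fold change of -1.13 (SE 0.060, adjusted p = 6.95e-11 in edgeR's quasi-likelihood test with Benjamini-Hochberg adjustment). All CPM values are scaled by TMM normalization, all log2 fold changes are siALDOA minus siControl, and a gene was called changed at an adjusted p under 0.05. Of the 15307 genes with enough reads to be tested, 668 (4.36%) were called higher and 810 (5.29%) lower, 9.66% in all. Scaling by library totals only gave 896 higher and 279 lower genes, and with ribosomal RNA genes removed as well 735 and 760. The 10 markers of colorectal epithelium were all expressed, and their summed level was 8652 to 8910 CPM with siALDOA and 9486 to 9966 CPM with siControl. The epithelial keratins KRT8 and KRT18 held most of this sum, at means of 5093 and 1910 CPM with siALDOA and 5595 and 2320 CPM with siControl. KRT18 was the only marker of the 10 called, lower with a log2 fold change of -0.28 (adjusted p = 0.0152). EPCAM alone had an estimate above 0 (0.13, adjusted p = 0.224) and was not called. Markers of fibroblasts, blood cells and endothelium were mostly at or near 0, with COL1A2, PDGFRA, CD3E, TYROBP and KDR at 0 counts in all 6 libraries. The summed levels were 3.16 to 4.36 CPM with siALDOA and 3.05 to 4.46 CPM with siControl for the 8 fibroblast markers, 17.1 to 18.7 CPM and 13.5 to 15.2 CPM for the 7 blood markers, and 0.950 to 1.70 CPM and 1.87 to 2.41 CPM for the 5 endothelial markers. CD14 among the blood markers was called higher (log2 fold change 0.32, adjusted p = 0.0485) and PECAM1 among the endothelial markers lower (-1.23, adjusted p = 0.0429). The only other endothelial marker tested, TEK, had an estimate in the other direction and was not called (0.58, adjusted p = 0.602). The part of these marker shifts in the results for the 10 genes was not tested.

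ID1 was the only gene of the group called changed, and it was down-regulated by siALDOA. Of the 9 genes that could be tested, 0 were called higher and 1 lower, beside 4.36% higher and 5.29% lower over all tested genes, so the number called does not set these genes apart from the rest. ID1 was also the only one of the 9 whose siALDOA and siControl libraries did not overlap in CPM, a property of 27.7% of all tested genes. At the study's own threshold, an unadjusted p under 0.01, ID1 was again the only one called, and 12.5% of all tested genes were. The fitted log2 fold changes had a median of -0.0043, beside 0.0016 over all tested genes.

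**Figure D1:**
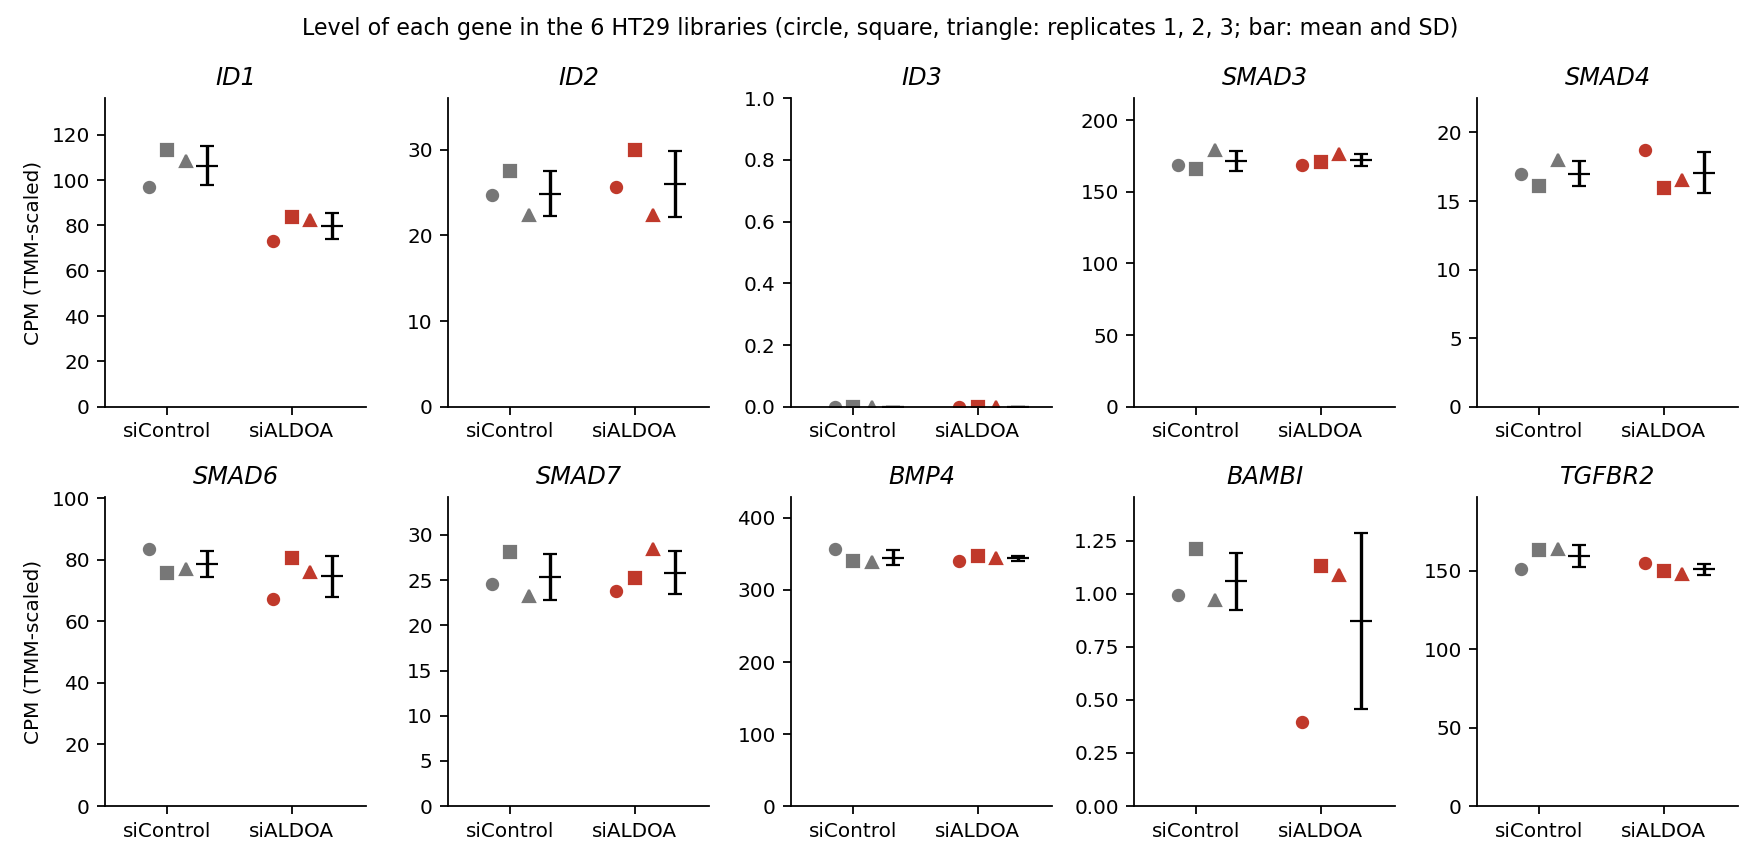
CPM of the 10 genes in each of the 3 siControl (grey) and 3 siALDOA (red) libraries, 1 panel per gene, with circle, square and triangle for replicates 1, 2 and 3 and bars for the mean and SD. The ID1 points of siALDOA, 73.0 to 83.6 CPM, all lie below those of siControl, 96.9 to 113 CPM, those of the other 8 tested genes overlap between the groups, and ID3 is at 0 throughout.

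ID1 (ENSG00000125968, chromosome 20, 31605283 to 31606515 on the plus strand) encodes an HLH protein without a DNA-binding region and is a direct target of BMP-activated SMADs. Its level was 73.0, 83.6 and 82.3 CPM in the siALDOA libraries and 96.9, 113 and 109 CPM in the siControl libraries, from 2033, 2511 and 2339 counts and from 3021, 3461 and 3578 counts. The highest siALDOA library thus lay below the lowest siControl library. The means were 79.6 ± 5.75 CPM (SD, n = 3) and 106 ± 8.50 CPM (SD, n = 3), and the log2 fold change was -0.42 (SE 0.070, adjusted p = 5.02e-04). On the linear scale ID1 decreased by 25.1%, with a 95% interval from -32.3% to -17.0%. By unadjusted p it ranked 273 among the 15307 tested genes, and it was called lower under all 14 alternative settings, with log2 fold changes from -0.48 to -0.34. In bulk RNA, fewer cells expressing a gene and less of its RNA per cell cannot be told apart.

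ID2 (ENSG00000115738, chromosome 2, 8678845 to 8684461 on the plus strand), a close relative of ID1 and likewise a BMP target, was measured at 25.7, 30.0 and 22.3 CPM with siALDOA and at 24.7, 27.6 and 22.4 CPM with siControl. The ranges of the groups nearly coincided. Its log2 fold change was 0.067 (SE 0.10, adjusted p = 0.756), and the interval ran from -9.95% to 21.9%. The antisense gene ID2-AS1 overlaps ID2 and had 19 to 36 counts per library, and without a stated strand setting its reads and those of ID2 cannot be told apart.

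ID3 (ENSG00000117318, chromosome 1, 23557926 to 23559501 on the minus strand), the third ID gene examined, was listed at 0 counts in all 6 libraries and was not tested. At these depths, 3 counts would correspond to 0.0903 to 0.110 counts in 1000000 of the library total, here without TMM scaling, a floor for counting error alone. The same tables listed RPL7A, a ribosomal protein gene that cells use throughout, at 0 as well, and 7308 genes had 0 counts in every library, so for ID3 only the listing at 0 is given and no level is read from it. Of the closest protein-coding genes in the count tables on either side of ID3, E2F2 was also listed at 0 and RPL11 had 9567 to 11272 counts per library.

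Ratios of counts within a library do not depend on scaling, and 5 such ratios were computed after the values had been seen. ID1 had 2.84, 2.78 and 3.68 counts for each ID2 count with siALDOA and 3.93, 4.12 and 4.85 with siControl. All 3 siALDOA ratios were below the siControl ratios, with means of 3.10 ± 0.503 and 4.30 ± 0.490 (SD, n = 3; exact two-sided permutation test, p = 0.1, adjusted p = 0.167 over 5 ratios). With 3 libraries against 3, 0.1 is the smallest p that this exact test can give. The ratio of ID1 to BMP4 was 0.231 ± 0.0145 with siALDOA and 0.309 ± 0.0331 with siControl, again without overlap (exact permutation p = 0.1, adjusted p = 0.167). The feedback genes gave overlapping ratios of SMAD7 to SMAD6, at 0.347 ± 0.0306 and 0.323 ± 0.0432 (SD, n = 3; exact permutation p = 0.4, adjusted p = 0.5). SMAD6 to SMAD3 also overlapped, at 0.434 ± 0.0353 and 0.460 ± 0.0337 (SD, n = 3; exact permutation p = 0.5, adjusted p = 0.5).

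Among 13716 tested genes of at least 1 CPM, the 3 whose pattern over the 6 libraries was closest to that of ID1 were GALNT6, GPR157 and CNPPD1. Closeness was the root mean square difference of log2 CPM, centred on each gene's mean over the 6 libraries, and it was 0.0212 for GALNT6, 0.0323 for GPR157 and 0.0342 for CNPPD1. GALNT6, a transferase that starts O-linked glycosylation, had a log2 fold change of -0.40 and was not called (adjusted p = 0.0526). GPR157, an orphan receptor, and CNPPD1 were called lower, with log2 fold changes of -0.41 (adjusted p = 0.0300) and -0.40 (adjusted p = 5.14e-04). Because these genes were chosen for closeness to ID1 in the same libraries, fold changes near that of ID1 follow from the choice.

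The ligand and the receptor showed no detectable change. BMP4 (ENSG00000125378, chromosome 14, 53949736 to 53958761 on the minus strand), a secreted BMP ligand, was measured at 340, 347 and 345 CPM with siALDOA and at 357, 340 and 338 CPM with siControl. The siControl libraries spread on both sides of the siALDOA libraries. Its log2 fold change was -0.0043 (SE 0.054, adjusted p = 0.971), and the interval ran from -7.73% to 7.73%, the narrowest of the 9. TGFBR2 (ENSG00000163513, chromosome 3, 30606601 to 30694142 on the plus strand), the type II receptor that binds TGF-beta, was measured at 155, 150.0 and 148 CPM with siALDOA and at 151, 163 and 164 CPM with siControl. The groups overlapped through siControl replicate 1. TGFBR2 had a log2 fold change of -0.081 (SE 0.058, adjusted p = 0.430), with an interval from -13.0% to 2.73%.

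Neither SMAD3 nor SMAD4 was called. These are RNA levels, and with the truncating mutation named above, the SMAD4 level does not stand for working SMAD4 protein. SMAD3 (ENSG00000166949, chromosome 15, 67063763 to 67195173 on the plus strand), which TGF-beta receptors phosphorylate, was measured at 168, 171 and 176 CPM with siALDOA and at 168, 166 and 179 CPM with siControl. The siALDOA libraries lay inside the siControl range. Its log2 fold change was 0.0056 (SE 0.057, adjusted p = 0.967), with an interval from -7.51% to 8.97%. SMAD4 (ENSG00000141646, chromosome 18, 51028528 to 51085045 on the plus strand), the common partner of the receptor-regulated SMADs, was measured at 18.8, 15.9 and 16.5 CPM with siALDOA and at 17.0, 16.1 and 18.0 CPM with siControl. The siControl libraries lay inside the siALDOA range. For SMAD4 the log2 fold change was 0.0049 (SE 0.10, adjusted p = 0.982), and its lower level came with a wider interval, from -13.1% to 15.9%.

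The inhibitory members also did not pass the test. SMAD6 (ENSG00000137834, chromosome 15, 66702236 to 66782849 on the plus strand), which acts mainly against BMP signalling and whose window with GTCTAGAC is printed above, was measured at 67.4, 80.4 and 76.1 CPM with siALDOA and at 83.5, 75.6 and 77.1 CPM with siControl. Its log2 fold change was -0.077 (SE 0.071, adjusted p = 0.566), with an interval from -14.4% to 5.01%, and it was -0.13 without siALDOA replicate 2 and -0.0093 without siALDOA replicate 1. SMAD7 (ENSG00000101665, chromosome 18, 48919853 to 48950965 on the minus strand), which blocks both TGF-beta and BMP receptors, was measured at 23.8, 25.3 and 28.5 CPM with siALDOA and at 24.6, 28.1 and 23.3 CPM with siControl. In both genes the groups overlapped. SMAD7 had a log2 fold change of 0.029 (SE 0.094, adjusted p = 0.890), with an interval from -11.0% to 17.0%. BAMBI (ENSG00000095739, chromosome 10, 28677510 to 28682932 on the plus strand) encodes a transmembrane protein that resembles a type I receptor but lacks the kinase. It rested on few reads, 11, 34 and 31 counts with siALDOA and 31, 37 and 32 counts with siControl, or 0.395, 1.13 and 1.09 CPM and 0.994, 1.21 and 0.971 CPM. Only siALDOA replicate 1 stood apart. The log2 fold change of BAMBI was -0.27 (SE 0.41, adjusted p = 0.745), or 0.070 without siALDOA replicate 1, and its interval from -54.1% to 49.5% left a change of the size seen in ID1 undetectable at this depth.

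**Figure D2:**
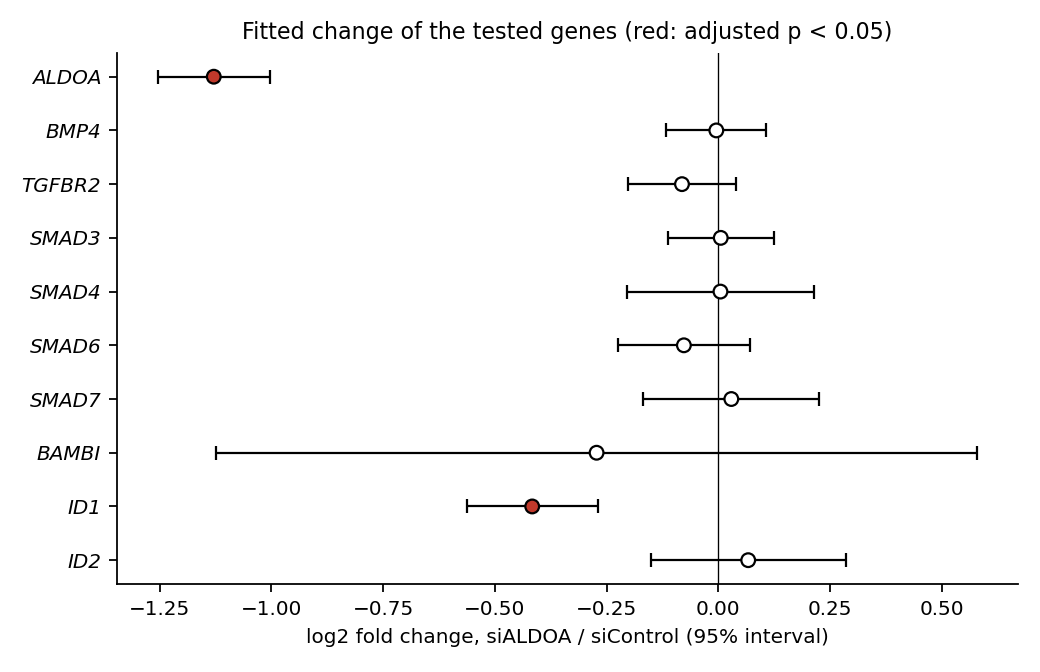
Log2 fold change (siALDOA over siControl) of ALDOA and the 9 tested genes with 95% intervals, red where the adjusted p was under 0.05. The ID1 interval lies below 0, and those of the other 8 genes of the group cross 0, with the widest for BAMBI.

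Levels between genes were compared as CPM per kilobase of exon, with the union of annotated exons as length. In siControl the order was BMP4 at 111 ± 3.42, ID1 at 86.2 ± 6.89, TGFBR2 at 23.3 ± 1.05, SMAD3 at 17.1 ± 0.712, ID2 at 11.2 ± 1.18, SMAD6 at 9.20 ± 0.496, SMAD7 at 6.42 ± 0.639, SMAD4 at 0.867 ± 0.0479 and BAMBI at 0.495 ± 0.0622 CPM per kilobase (SD, n = 3). The ligand and the called target were thus the most abundant transcripts per length, and neighbours in this order did not overlap in the siControl libraries. The closest neighbours were ID2, at 10.1 to 12.5 CPM per kilobase, and SMAD6, at 8.83 to 9.76. With the longest transcript as length SMAD6 stood above ID2, at 15.1 and 12.2 CPM per kilobase, and TGFBR2 and SMAD3 overlapped, at 26.1 to 28.3 and 25.7 to 27.8. The order by union of exons was the same with siALDOA, where ID1 was at 64.6 ± 4.66 and BMP4 at 111 ± 1.11 CPM per kilobase (SD, n = 3).

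**Figure D3:**
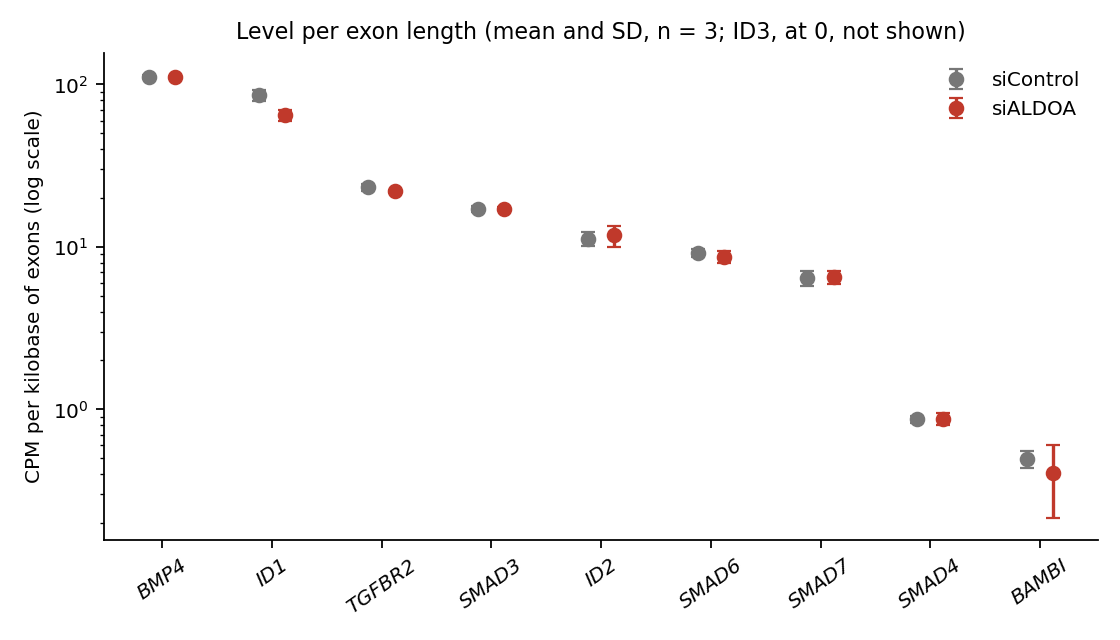
Level per length of the 9 tested genes in siControl and siALDOA, as CPM per kilobase of exon on a log axis, with points and bars for the mean and SD (n = 3). BMP4 and ID1 lead the order and BAMBI is lowest, at 0.495 CPM per kilobase in siControl, and only for ID1 do the SD bars of the groups lie clearly apart.

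**Figure D4:**
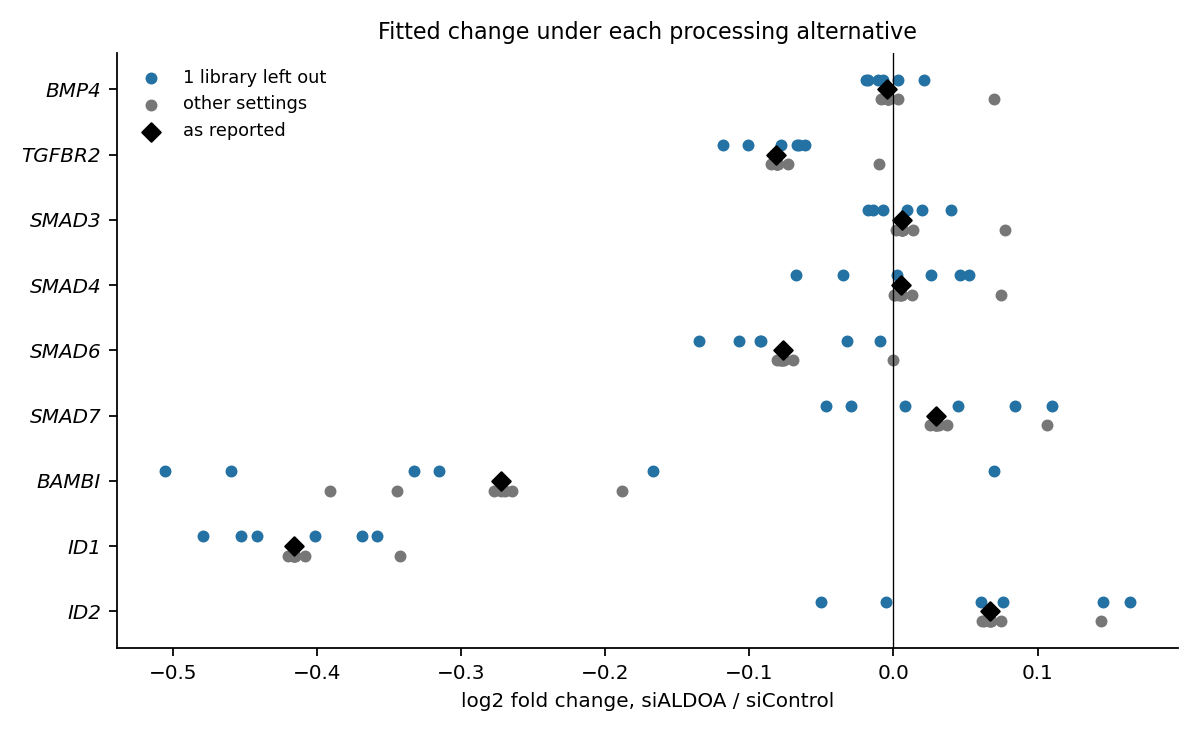
Log2 fold change of the 9 tested genes as reported (black) and under the 14 alternatives, with blue points for those that leave out 1 library and grey points for the others. ID1 stays between -0.48 and -0.34, and 6 other genes have points on both sides of 0.

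The wider pathway was described with a list of 113 genes in 11 roles, of which 82 had enough reads to be tested. Of these, 2 were called higher (ASCL2 and TGFBI) and 6 lower (GDF15, ID1, KLF4, SKI, TGFBR1 and TWSG1), together 9.76%, beside 9.66% over all tested genes, which is no more than the background. The share of estimates below 0 was 67.1% in the list and 49.7% over all tested genes, with medians of -0.070 and 0.0016. Without siALDOA replicate 2 the median of the list was -0.022, with 49 of 85 tested genes below 0, and without siALDOA replicate 3 it was -0.042. With library totals only, which moved the estimates of all genes upwards, 40 estimates of the list were below 0 and 42 above, beside 33.9% below 0 over all tested genes, and the medians were 0.0024 in the list and 0.075 over all tested genes.

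Among 9 tested ligands of the BMP and activin class, GDF15, a divergent relative that is released by stressed cells, was called lower. Its level was 70.8, 72.5 and 78.7 CPM with siALDOA and 126, 112 and 116 CPM with siControl, with no overlap. GDF15 thus had a log2 fold change of -0.67 (SE 0.065, adjusted p = 4.40e-07). The others with the lowest p were not called, with log2 fold changes of 0.21 for BMP1 (adjusted p = 0.248), a protease that acts on procollagen rather than a BMP ligand, -0.24 for GDF11 (adjusted p = 0.134) and -0.54 for NODAL (adjusted p = 0.579). None of the 7 tested genes for TGF-beta ligands and latency proteins was called, and TGFB3, a TGF-beta isoform, came closest at 0.81 (SE 0.27, adjusted p = 0.0631) from 2.48, 2.30 and 2.15 CPM with siALDOA and 1.22, 1.34 and 1.37 CPM with siControl. It passed with DESeq2 (adjusted p = 0.0439) and among genes with at least 10 counts in every library (adjusted p = 0.0454). TGFB2, another isoform, had a log2 fold change of -0.30 (adjusted p = 0.228) and LTBP2, a latency protein, one of 0.47 (adjusted p = 0.185).

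TGFBR1, the type I receptor that pairs with TGFBR2, was called lower while TGFBR2 was not. TGFBR1 (chromosome 9, 99104038 to 99154192) was measured at 10.6, 7.15 and 7.99 CPM with siALDOA and at 17.3, 13.7 and 15.3 CPM with siControl. Its log2 fold change was -0.85 (SE 0.14, adjusted p = 2.98e-04), and it was called under all 14 alternatives. The count ratio of TGFBR1 to TGFBR2 was 0.0567 ± 0.0105 with siALDOA and 0.0974 ± 0.0156 with siControl (SD, n = 3), without overlap (exact two-sided permutation test, p = 0.1, the smallest it can give, adjusted p = 0.167). The other 4 tested type I receptors were not called, among them the BMP receptors BMPR1A at -0.12 (adjusted p = 0.380) and ACVR1 at -0.053 (adjusted p = 0.753), and ACVR1C at 0.48 (adjusted p = 0.623). Of 7 type II receptors and coreceptors none was called. The coreceptor TGFBR3 had a log2 fold change of 0.37 (SE 0.12, adjusted p = 0.0517) and passed under 8 of the 14 alternatives, among them those without siALDOA replicate 3 (adjusted p = 0.0458) and without siControl replicate 1 (adjusted p = 0.0360), but not without siControl replicate 2 (adjusted p = 0.222). ENG, the coreceptor endoglin, had -0.21 (adjusted p = 0.259), but -0.38 without siALDOA replicate 2 (adjusted p = 0.0342) and -0.11 without siALDOA replicate 1 (adjusted p = 0.598), and the activin receptor ACVR2B 0.21 (adjusted p = 0.219).

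The 6 receptor-regulated and common SMAD genes held no call. SMAD1 and SMAD5, which transmit BMP signals, had log2 fold changes of -0.21 (SE 0.11, adjusted p = 0.242) and 0.11 (SE 0.069, adjusted p = 0.336), and SMAD2, the partner of SMAD3 in TGF-beta signalling, had -0.082 (SE 0.077, adjusted p = 0.574). Of 16 intracellular regulators, SKI, a corepressor that binds SMAD complexes, was called lower at 76.6, 79.0 and 75.0 CPM with siALDOA and 95.7, 95.8 and 95.6 CPM with siControl. The log2 fold change of SKI was -0.32 (SE 0.059, adjusted p = 0.00125), and the call was lost only with library totals (adjusted p = 0.0629). The ubiquitin ligase gene SMURF2 had -0.21 (adjusted p = 0.106), the receptor-binding STRAP -0.12 (adjusted p = 0.186) and FKBP1A, which binds type I receptors, -0.12 (adjusted p = 0.201).

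Of 5 tested secreted antagonists, TWSG1, which binds BMPs outside the cell, was called lower at 33.4, 33.6 and 33.9 CPM with siALDOA and 41.0, 39.4 and 39.0 CPM with siControl. Its fitted log2 fold change was -0.24 (SE 0.071, adjusted p = 0.0346), and the call did not hold without any 1 of the 6 libraries, with adjusted p from 0.0517 without siALDOA replicate 1 to 0.0986 without siControl replicate 1, or with library totals only (adjusted p = 0.289). NBL1, another BMP antagonist, had -0.27 (adjusted p = 0.0801) and passed under 3 alternatives, among them without siALDOA replicate 2 (-0.39, adjusted p = 0.0130), but had -0.15 without siALDOA replicate 1 (adjusted p = 0.271). FSTL3 had -0.20 (adjusted p = 0.539) and SOSTDC1 0.20 (adjusted p = 0.200).

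Among 7 tested BMP target genes, KLF4 was called lower beside ID1. That is 28.6% of a small role, beside 9.66% over all tested genes, and no theme is read from it. KLF4, a transcription factor of differentiated gut epithelium, was measured at 14.2, 16.1 and 16.6 CPM with siALDOA and at 18.1, 20.7 and 21.4 CPM with siControl. For KLF4 the log2 fold change was -0.36 (SE 0.10, adjusted p = 0.0279), and the call was lost with library totals only (adjusted p = 0.136) and without siALDOA replicate 1 (0.0855), siALDOA replicate 2 (0.0586), siControl replicate 2 (0.105) or siControl replicate 3 (0.144). Other BMP targets were not called, with log2 fold changes of -0.36 for ATOH8 (adjusted p = 0.546), -0.049 for GATA2 (adjusted p = 0.720) and 0.10 for SOX9 (adjusted p = 0.290).

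Of 11 tested TGF-beta target genes, 1 was called, and it was higher. TGFBI, an extracellular matrix protein induced by TGF-beta, was measured at 59.9, 58.3 and 59.3 CPM with siALDOA and at 37.7, 38.6 and 35.6 CPM with siControl. TGFBI had a log2 fold change of 0.67 (SE 0.067, adjusted p = 7.01e-07), called under all 14 alternatives. The median over these 11 genes was -0.18, on the other side of 0. CCN2, a matricellular protein, had 0.43 (adjusted p = 0.132), or 0.24 without siALDOA replicate 2 (adjusted p = 0.495). JUNB, a subunit of AP-1, had -0.18 (adjusted p = 0.130), or -0.12 without siControl replicate 2 (adjusted p = 0.465).

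Basic HLH factors include the E proteins, such as TCF3, that ID proteins bind, and 1 of 6 tested genes of this role was called. ASCL2, a transcription factor of intestinal stem cells, was higher at 12.1, 11.6 and 7.53 CPM with siALDOA than at 6.54, 6.52 and 6.16 CPM with siControl. ASCL2 had a log2 fold change of 0.70 (SE 0.16, adjusted p = 0.00650), called under all 14 alternatives. TCF3 had -0.21 (SE 0.065, adjusted p = 0.0520) and passed under 7 alternatives, among them without siALDOA replicate 3 (adjusted p = 0.0297), but had -0.14 without siALDOA replicate 1 (adjusted p = 0.143). ATOH1, which drives secretory cells, had 0.23 (adjusted p = 0.395) and HES1, a Notch target, -0.13 (adjusted p = 0.257).

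**Figure D5:**
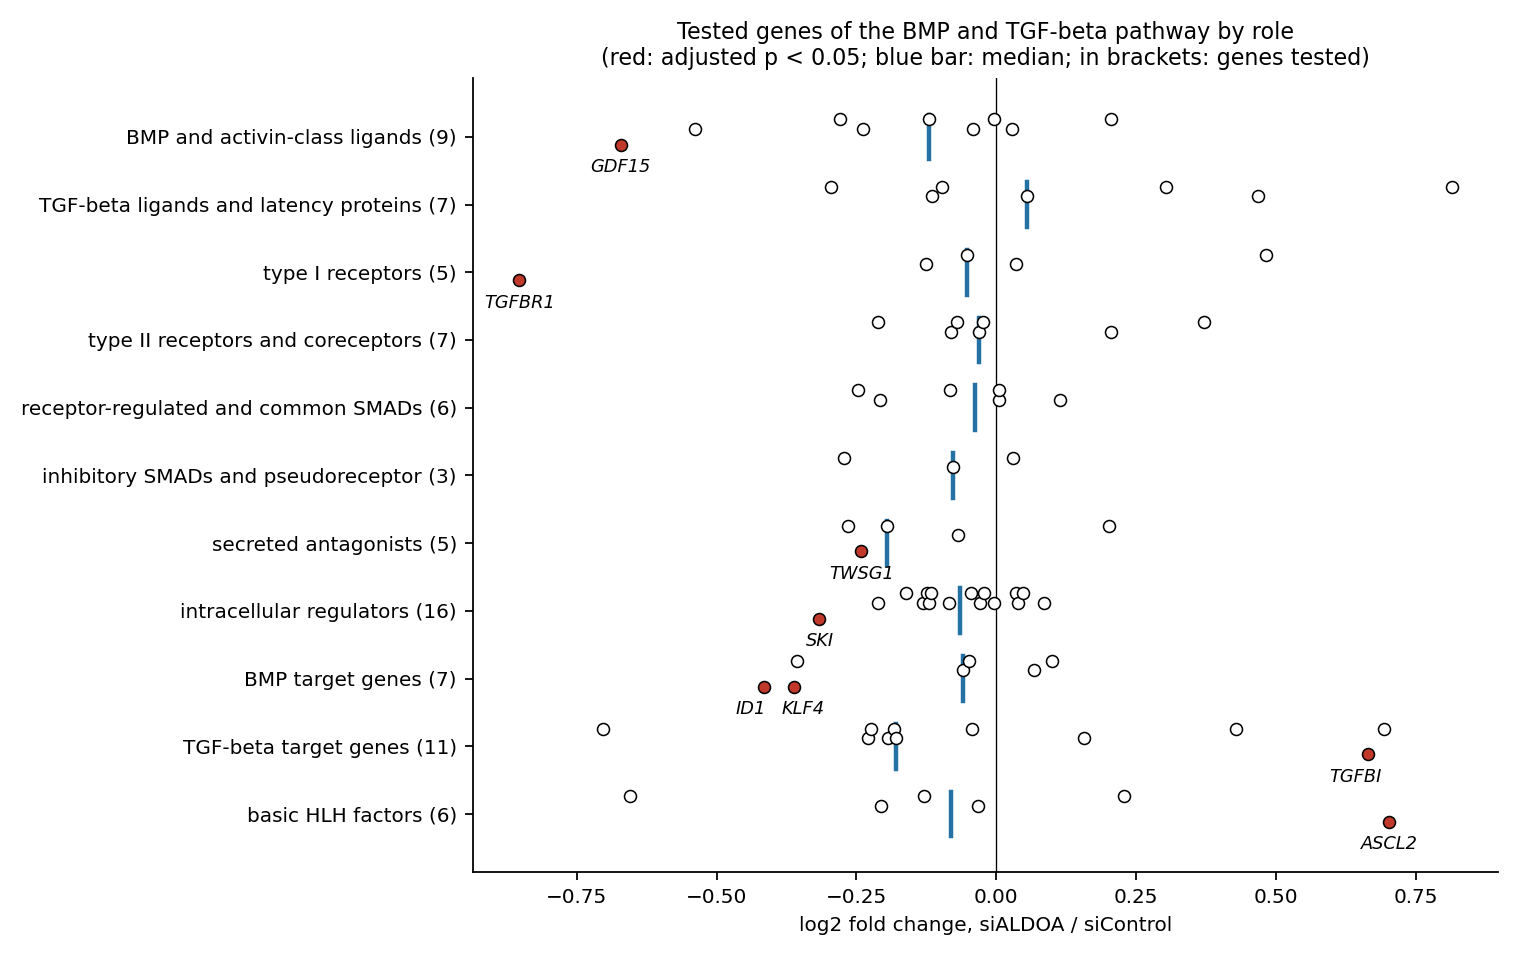
Log2 fold change (siALDOA over siControl) of the 82 tested pathway genes by role, with a blue bar at each role's median, and red, labelled points for genes with an adjusted p under 0.05. The 6 red points below 0 lie in 5 roles, ID1 and KLF4 among the BMP target genes, and the 2 above 0 are TGFBI and ASCL2.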

How the data were processed

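RNA-Seq of HT29 cells comprised 3 siALDOA and 3 siControl libraries of paired-end reads, grouped by their labels. By the study's methods, alignment to hg38 was done with TopHat2 and counting with GFOLD, and the authors deposited raw counts per gene symbol for each library. The counting annotation, the strand setting and the treatment of reads with several matches are not given in the sources used here. Depending on them, antisense or near-identical genes may share or lose reads. Depth was 27277538 to 33237914 counts per library, and the floor given for ID3 covers counting error only. Intervals are 95% intervals of the fit and rest on the spread between the libraries. For each gene the quasi-likelihood fit moderates that spread with the spread of the other tested genes.

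Counts were filtered (filterByExpr), scaled by TMM and tested in R 4.3.3 with edgeR 4.0.16 (quasi-likelihood F-test, all 6 libraries, no covariate, Benjamini-Hochberg over all tested genes, adjusted p under 0.05). The study's own threshold, an unadjusted p under 0.01, would call 1906 genes (12.5%). Log2 CPM used a prior count of 2, and each SE is the size of the log2 fold change over the root of its F statistic. Exon lengths and coordinates came from GENCODE release 44 on hg38, and promoter windows from RefSeq. Ratios and words were computed in python 3.11.15 with numpy 2.4.6, pandas 2.3.3 and scipy 1.17.1, and figures with matplotlib 3.10.9. The script was tested on simulated counts.

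The 10 genes, the pathway list, the markers and the tests were chosen with earlier results of these data known. Besides the 10 genes and ALDOA, genes were named if called in the pathway list, if among the 3 lowest p of the others in their role, or if among the 3 closest to the lowest-p gene in pattern. 1 gene taken by this rule is not reported here. KRT8, KRT18, EPCAM, CD14, PECAM1, TEK and the ID3 neighbours were named after their values were seen. Alternatives were DESeq2 1.42.0, limma-voom (limma 3.58.1), library totals only, no filter, at least 10 counts in every library, no ribosomal RNA genes, a replicate block, the study's threshold and each library left out. Library totals without ribosomal RNA genes were added after the data were seen.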

Additional observations from a re-analysis of the deposited data

How the results depend on the processing

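ALDOA kept its direction and call under all 14 alternatives (log2 fold change -1.17 to -1.06, and -1.17 without siControl replicate 1 to -1.09 without siControl replicate 3), as did ID1. No other of the 10 genes was called under any alternative that gave an adjusted p. Over all genes, library totals only gave 279 lower genes. Leaving out 1 library gave 359 to 644 higher and 471 to 790 lower genes, with 359 and 490 without siControl replicate 2 and 363 and 471 without siControl replicate 3. The 10 genes held 0 higher and 1 lower throughout, and the pathway list 2 to 3 higher and 4 to 7 lower.

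The 2 higher genes of the pathway list became 5 with DESeq2 and with the unadjusted p under 0.01, and 4 with library totals only, no filter, at least 10 counts in every library, without ribosomal RNA genes, and library totals without ribosomal RNA genes. The 6 lower ones became 3 with library totals only. The cause was not tested.

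Estimates near 0 changed sign when libraries were left out in turn. The ranges were -0.050 to 0.16 (ID2), -0.018 to 0.040 (SMAD3), -0.068 to 0.052 (SMAD4), -0.047 to 0.11 (SMAD7), -0.019 to 0.021 (BMP4), -0.51 to 0.070 (BAMBI) and -0.10 to 0.014 (ACVR1). Without siALDOA replicate 1 they were -0.068 (SMAD4), 0.0031 (BMP4) and 0.070 (BAMBI). Without siALDOA replicate 2 they were -0.050 (ID2) and 0.014 (ACVR1). Without siALDOA replicate 3 they were -0.014 (SMAD3) and -0.047 (SMAD7). Without siControl replicate 1 they were -0.0069 (SMAD3) and 0.021 (BMP4), without siControl replicate 2 -0.018 (SMAD3) and -0.035 (SMAD4), and without siControl replicate 3 -0.0050 (ID2) and -0.029 (SMAD7). Library totals only gave 0.070 (BMP4), 0.019 (ACVR1) and 0.022 (GATA2), and 0.0033 for BMP4 without ribosomal RNA genes. Other pathway genes that did not pass the test also moved by over 1.5 times when 1 library was left out. By siALDOA library left out, the farthest values were -0.19 (SMAD2, without replicate 1) and -0.020 (SMAD2, replicate 3), -0.32 (SMAD1, replicate 3), 0.074 and 0.18 (SMAD5, replicates 2 and 3) and -0.92 (NODAL, replicate 3). By siControl library they were -0.24 (NODAL, replicate 1), 0.94 and 0.14 (ACVR1C, replicates 1 and 2), -0.34 and -0.11 (FSTL3, replicates 1 and 2), -0.075 (BMPR1A, replicate 1), -0.20 (ATOH8, replicate 1), 0.38 (ATOH1, replicate 1), -0.18 (TGFB2, replicate 2), and -0.12 and -0.0035 (GATA2, replicates 2 and 3).

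Replicates of the groups share only a number: the correlations of same-numbered libraries were 0.035, 0.027 and 0.026, although each siALDOA library correlated best with its own number, a hint from the data and not from the design. A replicate block gave 987 higher and 1175 lower genes, 0 and 1 among the 10 genes, and 4 and 9 in the pathway list, where JUNB was then called lower (-0.18, adjusted p = 0.0316). DESeq2 gave no adjusted p for BAMBI, NODAL and ACVR1C, and NODAL and ACVR1C were not tested with at least 10 counts in every library. Among the 9 tested genes of the group, BAMBI, near 1 CPM, had the largest SE (0.41).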

Other observations

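Some pathway genes had too few reads to pass the filter with all 6 libraries, and the following were picked after their counts were seen. MMP2, a matrix metalloproteinase, had 0, 1 and 4 counts with siALDOA and 11, 7 and 13 counts with siControl. Without siALDOA replicate 3, the siALDOA library with the most MMP2 counts, MMP2 passed the filter and was called lower. It passed only through siControl libraries, the group where it is high, so that call follows from the selection and is no support for a change. INHBA, the activin A subunit, had 0, 0 and 2 counts with siALDOA and 10, 1 and 5 counts with siControl, with overlap between the groups. LRRC32, which holds latent TGF-beta at the cell surface, had 0, 1 and 0 counts with siALDOA and 16, 0 and 6 counts with siControl, also overlapping. DLX3, a homeobox gene listed as a BMP target, went the other way with 2, 5 and 6 counts with siALDOA and 0, 0 and 1 counts with siControl. With no filter and all 6 libraries, MMP2, INHBA, LRRC32 and DLX3 were tested and not called. At 0 counts in all 6 libraries stood 11 genes of the list, among them the BMP antagonist genes NOG and FST and the ID gene ID4.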
